A study of Mus musculus with 7 samples.

Results

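The genes described here are 40 mouse genes of meiotic prophase, the stage at which homologous chromosomes break, pair, synapse and recombine. They were chosen by symbol, from lists of genes for meiotic entry, cohesin, the synaptonemal complex, recombination and telomere attachment. The rule used symbols only, and the lists were drawn up with earlier results of these data known. All 40 have a row in the deposited gene table, which holds 20643 genes. The measurements are total RNA-seq of EGFP+ prospermatogonia, the male germ cells of the fetal testis, sorted at 15.5 dpc according to the protocol, though the source names read 15 dpc. The study inserted a transcription terminator cassette upstream of the *H19/Igf2* imprinting control region (ICR), and it asked whether transcription through the ICR is needed for the paternal methylation imprint. Of the 7 libraries, 3 came from *H19*Ter+neo/*H19*Ter+neo homozygotes, which carried the terminator with a Pgkneo selection cassette on both alleles (abbreviated Ter+neo, replicates 5, 6 and 7), 2 came from *H19*Ter/*H19*Ter homozygotes, which carried the terminator after the Pgkneo cassette was removed with Hprt-Cre (abbreviated Ter, replicates 3 and 4), and 2 came from wild type fetuses (WT, replicates 1 and 2).

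For sorting, the mutant fetuses carried the TgOG2 transgene, in which the *Pou5f1* (*Oct4*) promoter drives EGFP, and all 7 libraries come from FACS-sorted male germ cells. Both mutant lines were bred on an inbred strain and were crossed with the TgOG2 line, of B6 and CBA background. The strain background of the WT fetuses is not given, so insertion and background cannot be told apart in comparisons with WT. Both mutant lines descend from chimeras of a single targeted ES cell line, and testes of several fetuses could be digested in the same tube. Which litter gave which library is not stated here, so p-values measure the spread between these libraries. The terminator, the Pgkneo cassette and the ICR are not genes of the table, so the genotype of each library was not checked here.

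Female germ cells enter meiosis in the fetal ovary, whereas male germ cells of the same age enter mitotic arrest and postpone meiosis until after birth. In the fetal testis, retinoic acid is degraded and NANOS2 acts in the germ cells against *Stra8* and meiotic entry. Many genes of meiotic prophase are nevertheless transcribed at some level in fetal germ cells of both sexes. Their promoters are known, from mouse embryonic stem cells, as targets of a repressor complex, PRC1.6, whose subunits E2F6 and MGA-MAX bind an E2F motif and an E-box.

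These motifs were therefore looked for in RefSeq promoters (GRCm38.p6, from 250 bases before to 50 bases after the start of each gene), with GGCGGGA as the E2F motif and CACGTG as the E-box, on both strands, and both were chosen after the sequences had been seen. Of the 40 genes, 33 matched the promoter table. The E2F motif was in 11 of these promoters (33.3%), against 22.3% of 12642 promoters of genes in the deposited table and 12.7% of all 27025 promoters. The E-box was in 8 of the 33 (24.2%), against 11.3% and 8.09%. At least 1 of the motifs was in 15 (45.5%), against 30.5% and 19.2%. Both were in 4 (12.1%, *Tex12*, *Hormad1*, *Rnf212* and *Syce2*), against 3.04% and 1.63%. Higher levels in Ter+neo that held in each leave-out of 1 library occurred with and without a motif. *Mnd1* over Ter, and *Meioc*, *Mei1* and *Syce3* over WT, had neither motif. *Rnf212*, *Rad51c*, *Spata22*, *Stag3*, *Tex12* and *Hormad1* over WT had at least 1. The promoters below belong to *Spata22*, the gene with the largest rise in Ter+neo over Ter, to *Tex12* and *Hormad1*, whose higher levels in Ter+neo also held in each leave-out, and to *Stag3*, the most abundant meiotic cohesin gene per kb. Each is printed 5′ to 3′ on the strand of its gene, and capitals mark the motifs.
Spata22 (chr11:73329491-73329790, plus strand): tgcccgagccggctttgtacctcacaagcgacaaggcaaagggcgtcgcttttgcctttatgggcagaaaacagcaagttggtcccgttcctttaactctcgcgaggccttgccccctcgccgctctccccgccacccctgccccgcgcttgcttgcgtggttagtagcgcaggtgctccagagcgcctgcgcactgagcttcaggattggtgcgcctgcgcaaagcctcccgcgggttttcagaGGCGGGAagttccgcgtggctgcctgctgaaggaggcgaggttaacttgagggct
Tex12 (chr9:50561219-50561518, minus strand): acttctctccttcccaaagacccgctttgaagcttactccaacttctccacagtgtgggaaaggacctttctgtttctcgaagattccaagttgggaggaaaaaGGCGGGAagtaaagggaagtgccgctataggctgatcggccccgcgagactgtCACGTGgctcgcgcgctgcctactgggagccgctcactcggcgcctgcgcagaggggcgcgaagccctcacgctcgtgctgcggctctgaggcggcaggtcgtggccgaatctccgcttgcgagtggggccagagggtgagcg
Hormad1 (chr3:95559427-95559726, plus strand): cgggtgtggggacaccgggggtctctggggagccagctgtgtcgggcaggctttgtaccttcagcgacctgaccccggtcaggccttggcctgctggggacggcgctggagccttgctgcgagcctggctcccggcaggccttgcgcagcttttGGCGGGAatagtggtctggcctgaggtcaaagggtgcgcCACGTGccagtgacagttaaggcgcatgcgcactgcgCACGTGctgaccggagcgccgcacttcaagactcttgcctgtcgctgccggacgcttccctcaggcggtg
Stag3 (chr5:138280259-138280558, plus strand): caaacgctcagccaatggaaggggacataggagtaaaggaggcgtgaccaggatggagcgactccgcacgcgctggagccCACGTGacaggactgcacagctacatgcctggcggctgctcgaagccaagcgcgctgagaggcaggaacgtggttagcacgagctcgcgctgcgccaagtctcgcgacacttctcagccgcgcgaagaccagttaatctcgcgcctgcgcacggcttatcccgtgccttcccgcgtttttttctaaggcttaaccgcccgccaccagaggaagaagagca
The *Spata22* motif begins 5 bases before the start of the gene. In *Tex12* the E2F motif begins 146 bases and the E-box 93 bases before the start, and in *Hormad1* the E2F motif begins 96 bases and the E-boxes 57 and 20 bases before it. These positions count from the RefSeq start of each promoter. For *Tex12* and *Stag3* that start lies inside the gene span of GENCODE vM21, the source of the gene coordinates below. Among genes that rose in Ter+neo over WT, 5 of 11 with a promoter held the E2F motif and 4 of 11 the E-box. Among genes that did not pass the test in that comparison, 5 of 17 held the E2F motif and 4 of 17 the E-box. Of those that fell, 1 of 5 held the E2F motif and 0 of 5 the E-box. A match describes these letters only, and binding was not measured.

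The libraries held 84.1, 86.3 and 87.3 M read pairs counted to genes in Ter+neo, 51.2 and 37.5 M in Ter, and 45.1 and 45.9 M in WT, so that depth went with genotype. Germ cell markers summed to 4680 to 4822 CPM (read pairs per M read pairs counted, after scaling) in Ter+neo, 4028 to 4148 CPM in Ter and 4265 to 4487 CPM in WT, over 12 of 12 genes that ranged from *Dazl*, the highest, to *Nanos3*. Markers of other testis cells were low. The 12 Sertoli cell markers, from *Gata4* to *Cldn11*, summed to 22.0 to 29.8 CPM in Ter+neo, 28.2 to 33.0 CPM in Ter and 24.7 to 25.8 CPM in WT. The 11 interstitial and peritubular markers (*Pdgfra* to *Tcf21*) summed to 50.4 to 90.4, 65.5 to 131 and 55.5 to 69.2 CPM in the same order of groups, 7 of 8 Leydig cell markers with a value (*Star* to *Ren1*) to 6.88 to 33.1, 13.4 to 29.2 and 14.1 to 17.9 CPM, and 8 of 9 endothelial markers (*Pecam1* to *Emcn*) to 57.9 to 61.9, 65.6 to 69.7 and 63.9 to 70.6 CPM. Relative to WT, 5 of these 8 endothelial markers (62.5%) rose and 1 (12.5%) fell in Ter+neo (median log2 fold change 0.41), beside 27.7% and 26.7% of all genes. In Ter 2 rose (25.0%) and 1 fell (12.5%), beside 14.1% and 11.0%. The one that fell, *Pecam1*, was the highest of the list, at 16.8 to 19.4 CPM in Ter+neo, 24.0 and 28.2 CPM in Ter, and 35.3 and 42.4 CPM in WT. Its share of the endothelial sum was largest in WT, so these sums do not show the direction of the other markers. Whether the *Pecam1* reads came from endothelial or germ cells was not tested. In Ter+neo against WT, 2 Sertoli cell markers rose and 2 fell, 2 interstitial and peritubular markers rose and 1 fell, and none of the Leydig cell markers passed the test. Of the blood lists, 3 of 8 leukocyte markers (*Cd68* to *Adgre1*) had a value, at a sum of 5.10 to 7.09 CPM in all 7 libraries, and the only erythroid marker of 7 with a value, *Alas2*, was at 4.34 to 5.82 CPM in Ter+neo, 2.66 to 3.53 CPM in Ter and 1.66 to 2.75 CPM in WT. The other genes of these lists have no row in the table analysed here. The part of other cells in the results for the meiotic genes was not tested. In bulk samples, fewer cells of a type and less RNA per cell cannot be told apart.

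Meiotic prophase genes ranged widely in level in these cells, from the 7.51 percentile (*Mei1*) to the 99.4 percentile (*Tex15*) of genes by CPM per kb in WT. By CPM per kb of exon in WT, 11 of the 40 were in the top 10% of 20610 genes of known length, 19 lay between the median and the top 10%, and 10 lay below the median. The most abundant was *Tex15*, at 240 ± 29.7 CPM per kb in Ter+neo (SD, n = 3), 193 ± 17.5 CPM per kb in Ter and 161 ± 5.38 CPM per kb in WT (SD, n = 2 each), which ranked 125 among all genes in WT. *Sycp1*, *Sycp3*, *Stag3* and *Hells* followed, between 50.1 and 73.1 CPM per kb in WT, with *Sycp1* above the others in both WT libraries and *Sycp3* overlapping *Stag3* and *Hells*. The lowest were *Mei1*, *Spata22*, *Majin* and *Meiob*, at 0.132 ± 0.0139, 0.607 ± 0.0398, 0.635 ± 0.0263 and 0.740 ± 0.117 CPM per kb in WT (SD, n = 2). All 40 together summed to 4718 to 5291 CPM in Ter+neo, 4084 to 4429 CPM in Ter and 4084 to 4153 CPM in WT, and *Tex15* alone accounted for 2068 to 2627 CPM, 1738 to 1977 CPM and 1510 to 1583 CPM of these sums.

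**Figure D1:**
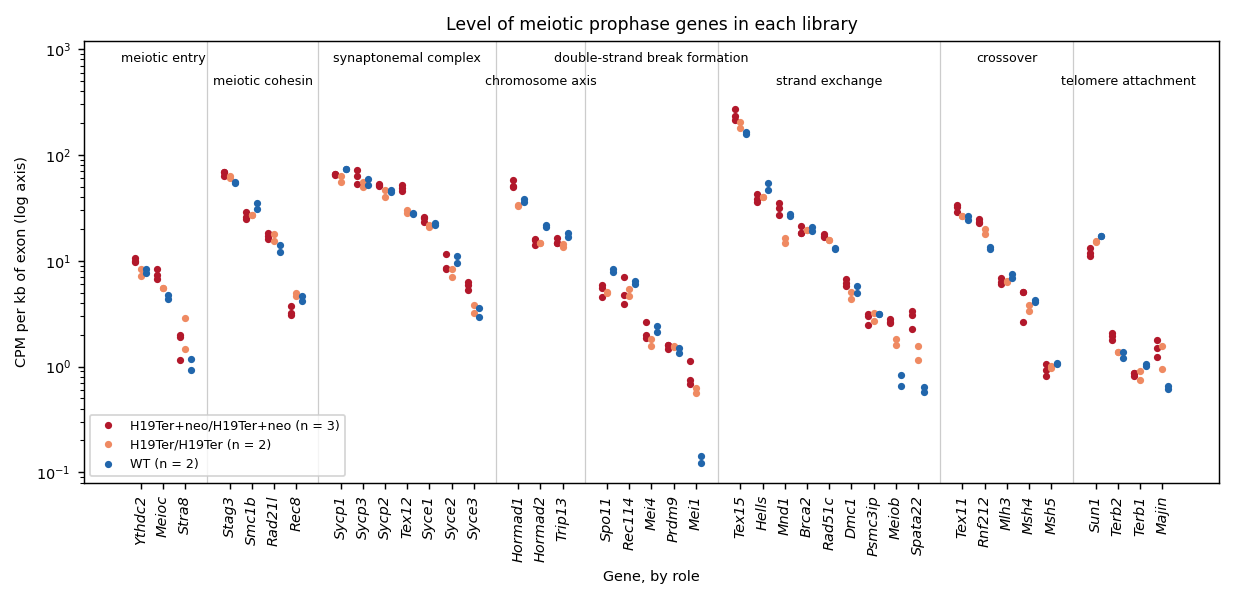
Level of each of the 40 meiotic prophase genes in each library, as CPM per kb of exon on a log axis, grouped by role and ordered by WT level; each point is a library of Ter+neo (n = 3), Ter (n = 2) or WT (n = 2). *Tex15* stands above all others, and *Mei1*, *Meiob*, *Spata22* and *Majin* are the genes whose Ter+neo points lie farthest above their WT points.

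Relative to WT, 17 of the 40 genes rose and 6 fell in Ter+neo, and 7 rose and 7 fell in Ter. The rises in Ter+neo were led by *Mei1*, *Spata22*, *Meiob* and *Majin*, and those in Ter by *Mei1*, *Meiob*, *Spata22* and *Majin*. These 4 were also the lowest of the 40 in WT by CPM per kb, and the WT libraries enter both measures. Differences were tested with limma on the log2 values of all 20643 genes, two-sided, with Benjamini-Hochberg adjustment over all genes and a threshold of 0.05. Passing this threshold was common. In Ter+neo against WT, 57.5% of the 40 were called, 42.5% as higher and 15.0% as lower, beside 54.4% of all genes (27.7% higher and 26.7% lower). In Ter against WT, 35.0% of the 40 were called, 17.5% in each direction, beside 25.1% of all genes (14.1% higher and 11.0% lower). The median log2 fold change of the 40 was 0.19 in Ter+neo and -0.07 in Ter, beside 0.01 and -0.01 for all genes. Both comparisons use the same 2 WT libraries. Leave-out counts are given out of 40, and the percentages beside them are shares of all genes. Without WT replicate 2, the counts were 3 higher and 3 lower in Ter, beside 5.34% higher and 1.48% lower of all genes, and 3 lower in Ter+neo, beside 18.05% of all genes. Without Ter replicate 3, 3 were lower in Ter, beside 3.83% of all genes, and without Ter replicate 4, 3 were higher and 4 lower, beside 6.60% and 2.56%.

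Ter+neo and Ter differ by the Pgkneo cassette, by the Hprt-Cre cross that removed it and in depth, and these cannot be told apart here. In Ter+neo against Ter, 14 of the 40 genes (35.0%) were higher in Ter+neo and 2 (5.0%) were lower. Of all genes 27.7% were called, 12.5% as higher and 15.2% as lower. The median log2 fold change was 0.21, beside 0.01 for all genes. The leave-out counts below are out of 40, and the percentages beside them are shares of all genes. Without Ter replicate 3 the count of higher genes was 4, beside 4.82% of all genes, and without Ter replicate 4 it was 8, beside 6.12%. Without either of them 1 gene was lower. After thinning each library to the 37.5 M read pairs of the smallest, 23 of 23 calls against WT remained in Ter+neo, 13 of 14 in Ter and 14 of 16 in Ter+neo against Ter. Scaling moved the split of calls over all genes: of genes called in Ter against WT, 56.2% were higher, which was 72.5% with the same total per library and 43.0% once a GC and length trend had been taken out. Of genes called in Ter+neo against Ter, 45.3% were higher, which was 32.0% with the same total per library.

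**Figure D2:**
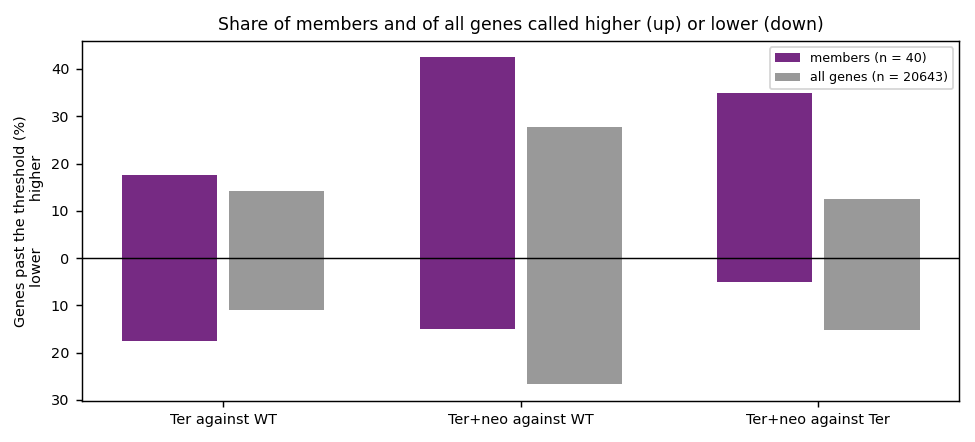
Share of the 40 meiotic prophase genes (purple) and of all 20643 genes (grey) past an adjusted p of 0.05 in each comparison, in percent, with higher genes drawn upward and lower genes downward from 0. Against WT, 42.5% of the 40 were higher in Ter+neo, beside 27.7% of all genes. Between the mutants, 35.0% were higher in Ter+neo, beside 12.5%.

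Of the genes of meiotic entry, *Meioc* and *Ythdc2* were higher in Ter+neo than in either other group, and *Stra8* passed the test in no comparison. *Stra8*, the retinoic acid target that starts meiotic entry, was at 2.10, 3.57 and 3.39 CPM in Ter+neo, 2.63 and 5.24 CPM in Ter, and 1.67 and 2.11 CPM in WT. Ter replicate 4 was the highest of the 7 libraries. Ter+neo overlapped both other groups, whereas both Ter libraries lay above both WT libraries. Its log2 fold change was 0.64 in Ter+neo (limma adjusted p = 0.102, standard error 0.31) and 0.97 in Ter (0.34, adjusted p = 0.0583). *Meioc*, which encodes the meiotic partner of the RNA helicase YTHDC2, was at 31.1, 33.7 and 38.2 CPM in Ter+neo, 25.2 and 25.4 CPM in Ter, and 22.0 and 20.1 CPM in WT. The groups did not overlap. It rose by 0.70 on the log2 scale over WT in Ter+neo (limma adjusted p = 0.000229, standard error 0.10) and by 0.43 over Ter (adjusted p = 0.00904), while the value in Ter against WT was 0.26 (adjusted p = 0.0929). *Ythdc2* was at 86.9, 88.3 and 93.3 CPM in Ter+neo, 63.2 and 74.0 CPM in Ter, and 67.4 and 74.5 CPM in WT, with the last 2 groups overlapping. It was higher in Ter+neo by 0.34 than in WT (limma adjusted p = 0.00612) and by 0.39 than in Ter (adjusted p = 0.00713). The *Meioc* call over Ter was lost without Ter replicate 3 (0.43, adjusted p = 0.0689) or Ter replicate 4 (0.44, adjusted p = 0.0587), the *Ythdc2* call over WT without WT replicate 1 (0.26, adjusted p = 0.0696), and that over Ter without Ter replicate 3 (0.27, adjusted p = 0.0955).

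Meiotic cohesin genes moved in both directions. Meiotic cohesin holds sister chromatids along the chromosome axis, with SMC1B and STAG3 as its meiotic core subunits and REC8 or RAD21L as its kleisin. *Stag3* and *Rad21l* rose in Ter+neo against WT whereas *Smc1b* and *Rec8* fell, so that all 4 were called. *Stag3* was at 363, 392 and 391 CPM in Ter+neo, 350 and 365 CPM in Ter, and 315 and 311 CPM in WT. Both WT libraries were the lowest of the 7, and the log2 fold change was 0.29 in Ter+neo (limma adjusted p = 0.00172) and 0.19 in Ter (adjusted p = 0.0458). *Smc1b* was at 116, 100 and 106 CPM in Ter+neo, 110 and 110 CPM in Ter, and 124 and 143 CPM in WT. Here both WT libraries were the highest, and the log2 fold change was -0.32 in Ter+neo (adjusted p = 0.00722) and -0.28 in Ter (adjusted p = 0.0421). *Rad21l* averaged 28.5 ± 1.95 CPM in Ter+neo (SD, n = 3), 27.3 ± 2.92 CPM in Ter and 21.7 ± 2.52 CPM in WT (SD, n = 2 each), with a call in Ter+neo (0.40, adjusted p = 0.00879) and a value in Ter of 0.34 (adjusted p = 0.0558). *Rec8* was at 9.48, 8.98 and 11.0 CPM in Ter+neo, 13.5 and 14.6 CPM in Ter, and 12.3 and 13.5 CPM in WT. It had the largest fall of the 40 in Ter+neo against Ter, of -0.52 (standard error 0.12, adjusted p = 0.00846), with -0.40 against WT (adjusted p = 0.0140).

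Several of these cohesin calls were lost when 1 library was left out. Leaving out a Ter or WT library leaves 1 in that group, and some calls were lost while the fold change hardly moved. Against WT in Ter+neo, those of *Rec8* (-0.33, limma adjusted p = 0.115), *Smc1b* (-0.22, adjusted p = 0.105) and *Rad21l* (0.28, adjusted p = 0.112) were lost without WT replicate 2. The *Rec8* call against Ter was lost without Ter replicate 4 (-0.46, adjusted p = 0.0752). In Ter against WT, the *Smc1b* call was lost without Ter replicate 3 (-0.28, adjusted p = 0.148), Ter replicate 4 (-0.28, adjusted p = 0.154) or WT replicate 2 (-0.18, adjusted p = 0.307). The *Stag3* call in Ter was lost without any of Ter+neo replicate 6, Ter replicates 3 and 4, and WT replicates 1 and 2, with values from 0.16 to 0.22.

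**Figure D3:**
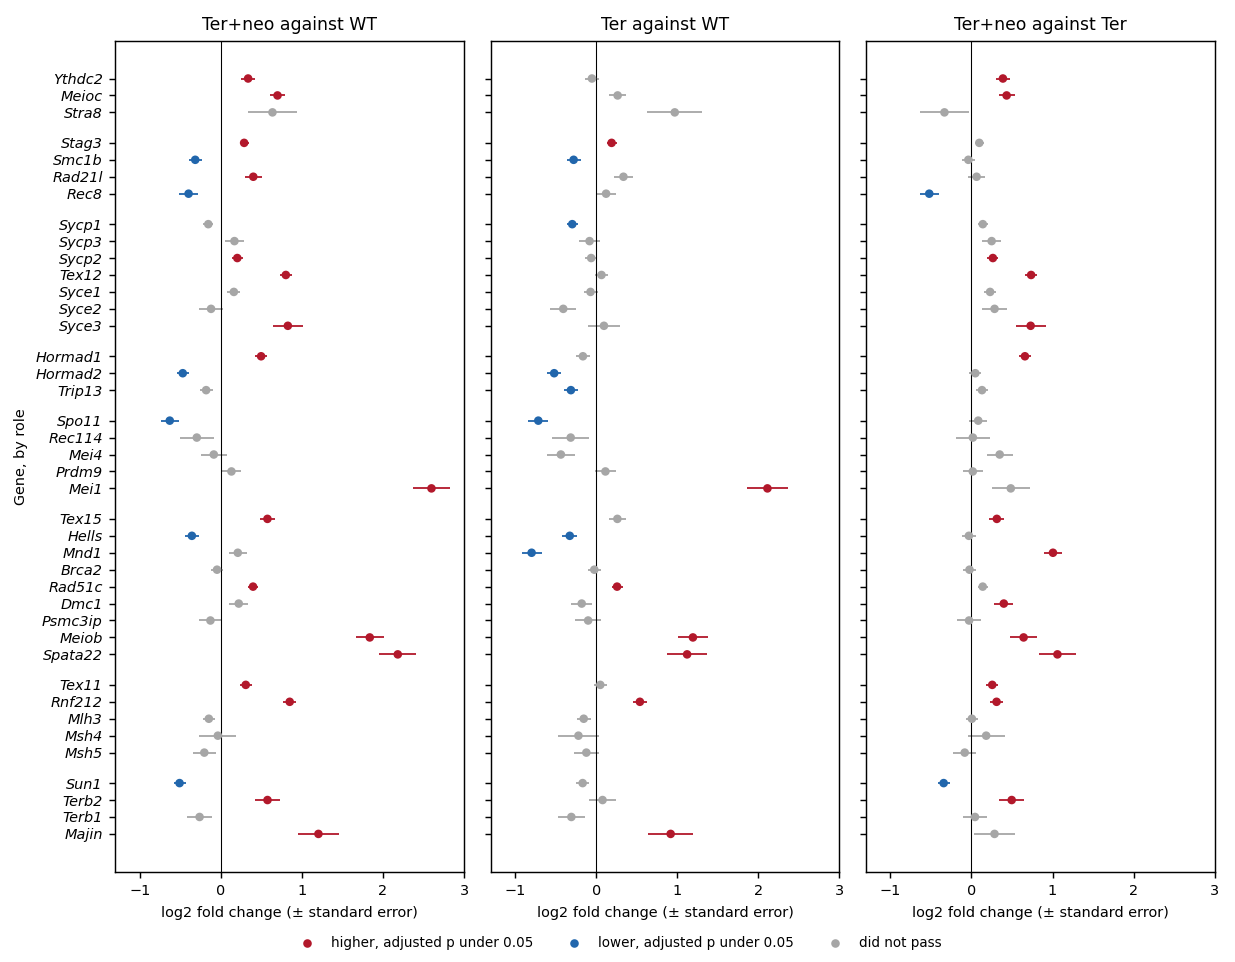
Log2 fold change of each gene, with its standard error as a horizontal bar, in Ter+neo against WT, Ter against WT and Ter+neo against Ter, by role. Red points passed the threshold and were higher, blue points passed and were lower, and grey points did not pass. *Mei1* lies farthest to the right against WT in both mutants, at 2.60 in Ter+neo and 2.11 in Ter.

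Of the 7 synaptonemal complex genes, *Tex12*, *Syce3* and *Sycp2* rose in Ter+neo over both WT and Ter, *Sycp1* fell in Ter, and the others did not pass the test. The synaptonemal complex joins homologues along their length, with SYCP2 and SYCP3 in its lateral elements, SYCP1 as its transverse filament, and SYCE1, SYCE2, SYCE3 and TEX12 in its central element. *Tex12* (chr9:50556819-50561325) was at 49.0, 52.4 and 46.8 CPM in Ter+neo, 29.0 and 30.3 CPM in Ter, and 28.2 and 28.5 CPM in WT. Ter and WT were close to each other and far below Ter+neo, which was 1.74-fold above WT (log2 0.80, standard error 0.08, limma adjusted p = 2.96e-05) and 1.67-fold above Ter (0.74, adjusted p = 0.000201). *Syce3*, at a much lower level of 3.22 ± 0.288 CPM in Ter+neo (SD, n = 3), 1.93 ± 0.247 CPM in Ter and 1.80 ± 0.245 CPM in WT (SD, n = 2 each), was also higher in Ter+neo than in WT (0.83, adjusted p = 0.00368) and in Ter (0.73, adjusted p = 0.0158). *Sycp1* was at 237, 233 and 231 CPM in Ter+neo, 199 and 226 CPM in Ter, and 261 and 259 CPM in WT. Both WT libraries were above all 5 mutant libraries, and the log2 fold change was -0.29 in Ter (adjusted p = 0.0139) and -0.15 in Ter+neo (adjusted p = 0.0597). *Sycp3* was at 91.0, 79.7 and 67.0 CPM in Ter+neo, 62.6 and 70.0 CPM in Ter, and 65.6 and 74.7 CPM in WT, with all groups overlapping, and 52.2% of its exon bases lie under exons of *Chpt1* on the other strand.

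*Sycp2* averaged 311 ± 5.61 CPM in Ter+neo (SD, n = 3), 259 ± 26.2 CPM in Ter and 270 ± 7.81 CPM in WT (SD, n = 2 each), with a log2 fold change of 0.20 over WT (limma adjusted p = 0.0250) and 0.26 over Ter (adjusted p = 0.0153). After a GC and length trend was taken out, its value over WT changed sign to -0.047 (adjusted p = 0.527), and its value over Ter was 0.048 (adjusted p = 0.599). Its call over WT was lost without Ter+neo replicate 7 (0.19, adjusted p = 0.0502), WT replicate 1 (0.17, adjusted p = 0.142) or WT replicate 2 (0.23, adjusted p = 0.0701), and that over Ter without Ter replicate 3 (0.16, adjusted p = 0.182). The *Syce3* call over Ter was lost without Ter+neo replicate 6 (0.67, adjusted p = 0.0543) or Ter replicate 4 (0.60, adjusted p = 0.109), and the *Sycp1* call in Ter without Ter replicate 3 (-0.20, adjusted p = 0.113), WT replicate 1 (-0.29, adjusted p = 0.0583) or WT replicate 2 (-0.30, adjusted p = 0.0862). *Syce1* (36.3 ± 2.004 CPM in Ter+neo, 30.9 ± 1.02 in Ter, 32.5 ± 1.28 in WT) and *Syce2* (18.7 ± 3.58, 15.2 ± 1.87 and 20.2 ± 2.14 CPM in the same groups) passed in no comparison with the values as deposited. Both *Tex12* calls held in all 7 leave-outs.

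The HORMA domain genes of the chromosome axis differed in direction. HORMAD1 and HORMAD2 bind the axes of chromosomes that have not synapsed, and the ATPase TRIP13 removes them. *Hormad1* (chr3:95559677-95587671) was at 87.4, 86.3 and 99.2 CPM in Ter+neo, 57.1 and 57.8 CPM in Ter, and 62.7 and 66.0 CPM in WT. Ter+neo stood above both other groups, by 0.50 over WT (standard error 0.08, limma adjusted p = 0.000387) and by 0.66 over Ter (adjusted p = 0.000306). *Hormad2* was at 44.1, 42.9 and 38.8 CPM in Ter+neo, 40.6 and 40.5 CPM in Ter, and 57.0 and 59.1 CPM in WT. It was lower in both mutants, by -0.47 in Ter+neo (adjusted p = 0.000555) and by -0.52 in Ter (adjusted p = 0.00275), with a difference of 0.05 between the mutants (adjusted p = 0.673). *Trip13* averaged 53.3 ± 3.56 CPM in Ter+neo (SD, n = 3), 48.7 ± 1.94 CPM in Ter and 60.5 ± 3.86 CPM in WT (SD, n = 2 each). It fell in Ter (-0.31, adjusted p = 0.0269), a call lost without Ter replicate 3 (-0.35, adjusted p = 0.0746), Ter replicate 4 (-0.27, adjusted p = 0.154) or WT replicate 2 (-0.25, adjusted p = 0.198), and its value in Ter+neo was -0.18 (adjusted p = 0.0744).

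Among genes of DNA break formation, *Mei1* rose and *Spo11* fell in both mutants. SPO11 makes the meiotic DNA breaks with the help of MEI1, MEI4 and REC114, at sites marked by the histone methyltransferase PRDM9. *Mei1* (chr15:82069996-82126814) was at 3.23, 3.56 and 5.35 CPM in Ter+neo, 2.69 and 2.94 CPM in Ter, and 0.581 and 0.674 CPM in WT. These values rest on 263 to 462 read pairs in Ter+neo, 114 and 143 in Ter, and 26 and 30 in WT, and the groups did not overlap. *Mei1* was 6.05-fold higher than WT in Ter+neo (log2 2.60, standard error 0.23, limma adjusted p = 2.17e-05) and 4.32-fold higher in Ter (2.11, standard error 0.25, adjusted p = 0.000831), and both calls held in all 7 leave-outs of 1 library. *Spo11* was at 17.6, 23.1 and 21.5 CPM in Ter+neo, 19.2 and 19.7 CPM in Ter, and 30.9 and 33.0 CPM in WT. All 5 mutant libraries were below both WT libraries, with a log2 fold change of -0.63 in Ter+neo (adjusted p = 0.000965), the largest fall of the 40 there, and of -0.71 in Ter (adjusted p = 0.00365). These calls held in every leave-out too, and neither gene passed the test between the mutants (*Mei1* 0.49, adjusted p = 0.145, and *Spo11* 0.08, adjusted p = 0.613).

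The other genes of this role passed in no comparison. *Rec114* was at 8.93, 6.10 and 4.98 CPM in Ter+neo, 6.89 and 5.93 CPM in Ter, and 8.22 and 7.70 CPM in WT, with the Ter+neo libraries spanning all the others, and 26.9% of its exon bases lie under exons of *Nptn* on the other strand. *Mei4* averaged 8.92 ± 1.72 CPM in Ter+neo (SD, n = 3), 6.94 ± 0.697 CPM in Ter and 9.39 ± 0.894 CPM in WT (SD, n = 2 each). *Prdm9* averaged 6.70 ± 0.314, 6.62 ± 0.0639 and 6.13 ± 0.516 CPM in the same groups.

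**Figure D4:**
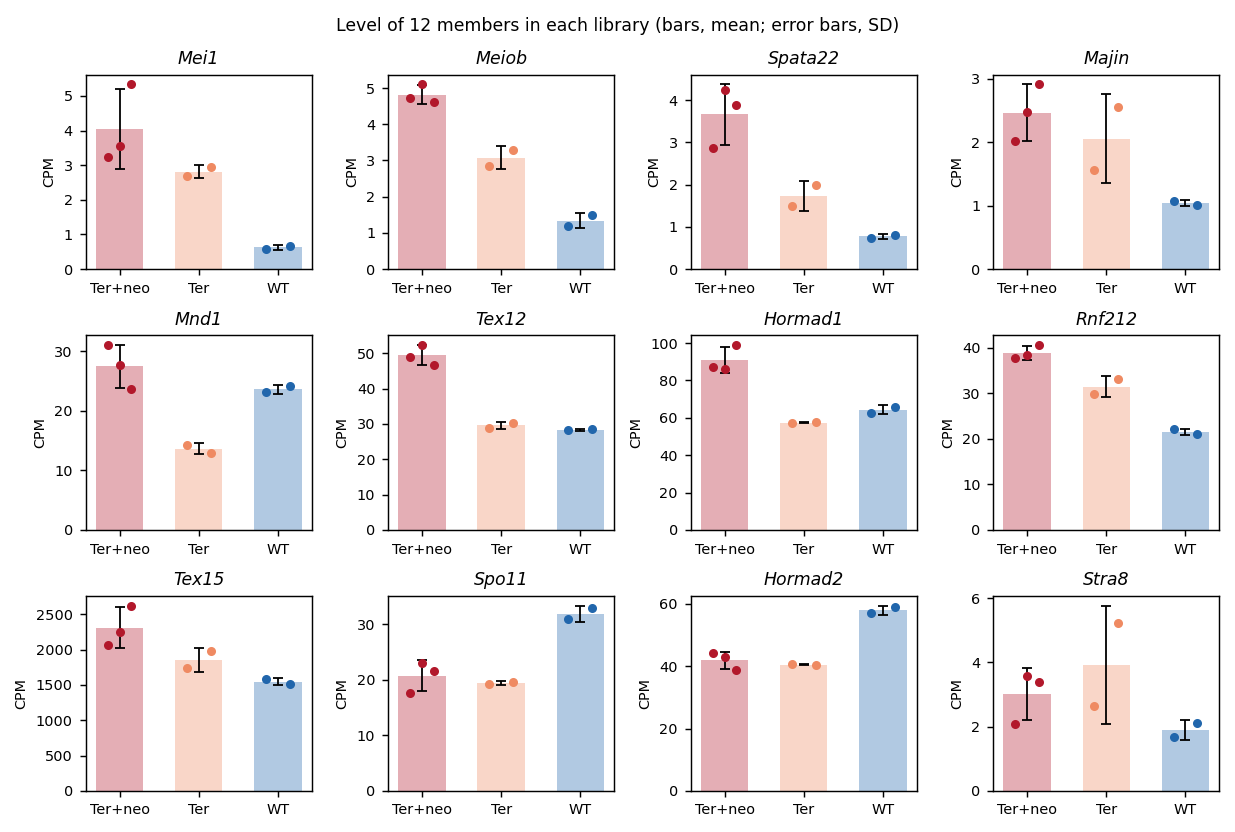
CPM in each library (points), with the mean (bars) and SD (error bars), for 12 of the genes in Ter+neo (n = 3), Ter (n = 2) and WT (n = 2), each panel on its own linear axis from 0. *Mei1*, *Meiob*, *Spata22* and *Rnf212* are highest in Ter+neo and lowest in WT, *Tex12* and *Hormad1* stand apart in Ter+neo, *Mnd1* is low in Ter, and *Spo11* and *Hormad2* are highest in WT.

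In the strand exchange group, *Meiob* and *Spata22*, whose products form a complex on single-stranded DNA, rose in both mutants and were higher in Ter+neo than in Ter. *Meiob* (chr17:24804289-24839788) was at 4.72, 5.12 and 4.61 CPM in Ter+neo, 2.86 and 3.30 CPM in Ter, and 1.18 and 1.48 CPM in WT. It was 3.57-fold above WT in Ter+neo (log2 1.84, standard error 0.17, limma adjusted p = 2.58e-05) and 2.29-fold above WT in Ter (1.19, adjusted p = 0.00241), without overlap between groups. *Spata22* (chr11:73329741-73346044) was at 2.86, 4.25 and 3.89 CPM in Ter+neo, 1.48 and 1.99 CPM in Ter, and 0.737 and 0.809 CPM in WT, which rest on 33 and 36 read pairs in WT. It was 4.54-fold above WT in Ter+neo (2.18, standard error 0.23, adjusted p = 4.80e-05), 2.18-fold above WT in Ter (1.12, adjusted p = 0.0111) and 2.09-fold higher in Ter+neo than in Ter (1.06, adjusted p = 0.00748). The exons of an overlapping locus on the same strand, *Gm49340*, cover 80.5% of the *Spata22* exon bases, so its reads may have been split or dropped in the counting. The *Spata22* call in Ter was lost without Ter replicate 4 (0.91, adjusted p = 0.0831) or WT replicate 2 (1.19, adjusted p = 0.0550), and its call over Ter without Ter replicate 3 (0.85, adjusted p = 0.0770). The *Meiob* difference between the mutants (0.64, adjusted p = 0.0188) was lost without Ter+neo replicate 6 (0.60, adjusted p = 0.0622), Ter replicate 3 (0.54, adjusted p = 0.133) or Ter replicate 4 (0.75, adjusted p = 0.0503).

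*Mnd1* stood apart in Ter. MND1 and PSMC3IP (HOP2) form a heterodimer that assists the recombinase DMC1. *Mnd1* (chr3:84087933-84155786) was at 31.0, 27.7 and 23.7 CPM in Ter+neo, 14.3 and 12.9 CPM in Ter, and 23.1 and 24.1 CPM in WT. Both Ter libraries were far below the other 5, with the largest fall of the 40 in Ter against WT (-0.80, standard error 0.12, limma adjusted p = 0.00246) and a 2.01-fold higher level in Ter+neo than in Ter (log2 standard error 0.11, adjusted p = 0.000279). Both calls held in every leave-out, and the value in Ter+neo against WT was 0.21 (adjusted p = 0.142). Its partner *Psmc3ip* averaged 5.25 ± 0.628 CPM in Ter+neo (SD, n = 3), 5.35 ± 0.594 CPM in Ter and 5.71 ± 0.00823 CPM in WT (SD, n = 2 each) and passed in no comparison, with 21.2% of its exon bases under exons of *Mlx* on the other strand. *Dmc1* averaged 15.2 ± 1.06, 11.5 ± 1.31 and 13.0 ± 1.35 CPM in these groups. Its 0.40 higher level in Ter+neo than in Ter (adjusted p = 0.0278) was lost without Ter+neo replicate 5 (0.35, adjusted p = 0.0602), Ter replicate 3 (0.52, adjusted p = 0.0504) or Ter replicate 4 (0.28, adjusted p = 0.209).

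*Tex15* (chr8:33516738-33585582), needed for meiotic recombination and also for transposon silencing in fetal male germ cells, was at 2068, 2247 and 2627 CPM in Ter+neo, 1738 and 1977 CPM in Ter, and 1583 and 1510 CPM in WT. The groups did not overlap, and the log2 fold change was 0.57 in Ter+neo over WT (standard error 0.09, limma adjusted p = 0.000561), 0.26 in Ter over WT (adjusted p = 0.0841) and 0.31 in Ter+neo over Ter (adjusted p = 0.0308). The last of these was lost without Ter+neo replicate 6 (0.33, adjusted p = 0.0513), Ter+neo replicate 7 (0.22, adjusted p = 0.0506) or Ter replicate 3 (0.22, adjusted p = 0.244). *Hells*, a chromatin remodeller with roles outside meiosis, was at 310, 259 and 276 CPM in Ter+neo, 288 and 287 CPM in Ter, and 333 and 389 CPM in WT. It was lower in both mutants, at -0.36 in Ter+neo (adjusted p = 0.00516) and -0.33 in Ter (adjusted p = 0.0298), with a call lost without WT replicate 2 in Ter+neo (-0.24, adjusted p = 0.0816) and in Ter without WT replicate 2 (-0.21, adjusted p = 0.244), Ter replicate 3 (-0.33, adjusted p = 0.110) or Ter replicate 4 (-0.32, adjusted p = 0.128). *Rad51c*, a repair gene also used in mitotic cells, averaged 75.4 ± 2.21 CPM in Ter+neo (SD, n = 3), 68.5 ± 0.175 CPM in Ter and 57.2 ± 0.932 CPM in WT (SD, n = 2 each). It was higher by 0.40 in Ter+neo (adjusted p = 0.000470) and by 0.26 in Ter (adjusted p = 0.0223), the last call being lost without either Ter or either WT library (0.24 to 0.27). *Brca2*, a gene of homologous recombination, was at 264 ± 24.4, 268 ± 1.39 and 272 ± 13.4 CPM in the same groups and passed in no comparison.

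Of the crossover genes, *Rnf212* rose in both mutants and the MutS and MutL genes passed in no comparison. *Rnf212*, whose product stabilises crossover intermediates, was at 37.7, 38.3 and 40.6 CPM in Ter+neo, 29.7 and 33.0 CPM in Ter, and 22.0 and 21.1 CPM in WT. Each group was apart from the others, with a log2 fold change of 0.85 in Ter+neo (limma adjusted p = 2.91e-05, standard error 0.08) and 0.54 in Ter (adjusted p = 0.00300) over WT, and of 0.31 in Ter+neo over Ter (adjusted p = 0.0178), which was lost without Ter replicate 3 (0.23, adjusted p = 0.170). *Tex11*, an X-linked gene of synapsis and crossing over, was at 121, 105 and 116 CPM in Ter+neo, 94.9 and 95.9 CPM in Ter, and 87.5 and 96.9 CPM in WT. Ter+neo was above both other groups, which overlapped, by 0.31 over WT (adjusted p = 0.00606) and 0.26 over Ter (adjusted p = 0.0294). These calls were lost without WT replicate 1 (0.23, adjusted p = 0.0718) and, over Ter, without Ter+neo replicates 5 or 7 or either Ter library (0.21 to 0.26). *Msh4* averaged 29.2 ± 9.47 CPM in Ter+neo (SD, n = 3), 24.7 ± 2.01 CPM in Ter and 28.7 ± 0.943 CPM in WT (SD, n = 2 each), with Ter+neo replicate 5 at 18.3 CPM, the lowest of all 7 libraries, and Ter+neo replicates 6 and 7 at 34.6 and 34.8 CPM, the highest. *Msh5* (5.19 ± 0.692, 5.47 ± 0.186 and 5.95 ± 0.118 CPM) and *Mlh3* (48.5 ± 3.16, 48.3 ± 0.739 and 53.8 ± 3.28 CPM) lay close together in the 3 groups.

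Of the telomere attachment genes, *Majin* rose in both mutants, *Terb2* rose and *Sun1* fell in Ter+neo, and *Terb1* passed in no comparison. MAJIN, TERB1 and TERB2 anchor telomeres to the inner nuclear membrane in meiosis, and SUN1 is a membrane protein of that linkage that many somatic cells also use. *Majin* (chr19:6184388-6224225) was at 2.01, 2.47 and 2.92 CPM in Ter+neo, 1.56 and 2.55 CPM in Ter, and 1.07 and 1.01 CPM in WT. All mutant libraries were above both WT libraries, with a log2 fold change of 1.20 in Ter+neo (limma adjusted p = 0.00241, standard error 0.25) and 0.92 in Ter (adjusted p = 0.0347). The call in Ter was lost without Ter replicate 4 (0.57, adjusted p = 0.230), Ter+neo replicate 6 (0.92, adjusted p = 0.0533), WT replicate 1 (0.96, adjusted p = 0.0836) or WT replicate 2 (0.88, adjusted p = 0.156). *Terb2* was at 4.37, 3.77 and 4.12 CPM in Ter+neo, 2.87 and 2.89 CPM in Ter, and 2.90 and 2.56 CPM in WT, so that Ter and WT overlapped and Ter+neo lay above both. Its log2 fold change was 0.58 over WT (adjusted p = 0.00919, lost without WT replicate 2 at 0.49, adjusted p = 0.0731) and 0.50 over Ter (adjusted p = 0.0353, lost without any of the Ter+neo or Ter libraries at 0.45 to 0.55). *Sun1* was at 100.2, 90.6 and 84.7 CPM in Ter+neo, 118 and 115 CPM in Ter, and 131 and 130 CPM in WT. The groups did not overlap, and Ter+neo was lower by -0.51 than WT (adjusted p = 0.000300) and by -0.34 than Ter (adjusted p = 0.00773, lost without Ter replicate 3 at -0.32, adjusted p = 0.0740). *Terb1* averaged 3.20 ± 0.103 CPM in Ter+neo (SD, n = 3), 3.12 ± 0.429 CPM in Ter and 3.84 ± 0.127 CPM in WT (SD, n = 2 each).

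GC content of transcripts moved with the difference between the mutants. The median GC content was 44.5% for all genes called higher in Ter+neo than in Ter, 51.9% for those called lower and 48.6% for all genes. The 40 meiotic genes had a median of 44.0%, the 14 higher ones 39.9% and the 2 lower ones 54.1%. After a GC and length trend over all genes was taken out, 6 of the 14 higher calls and 1 of the 2 lower calls remained. They were those of *Tex12*, *Hormad1*, *Mnd1*, *Spata22*, *Syce3* and *Ythdc2*, which were higher, and of *Rec8*, which was lower, and *Syce1* was newly called higher (0.25, limma adjusted p = 0.0320). The fold changes of *Tex12* and *Hormad1* over Ter were then 0.45 and 0.36, in place of 0.74 and 0.66, and those over WT were 0.52 and 0.22, in place of 0.80 and 0.50. Against WT, 19 of 23 calls remained in Ter+neo and 13 of 14 in Ter. Those lost in Ter+neo were *Ythdc2* (0.19, limma adjusted p = 0.0603), *Tex11* (0.15, adjusted p = 0.0768), *Terb2* (0.37, adjusted p = 0.0611) and *Sycp2*, and the one lost in Ter was *Stag3* (0.12, adjusted p = 0.176). With further genes newly called, the counts in Ter+neo against WT were 13 higher and 11 lower, in place of 17 and 6 from the values as deposited. Of all genes, 26.4% were then higher and 30.3% lower, in place of 27.7% and 26.7%. Whether GC content reflects the libraries or the cells was not tested.

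**Figure D5:**
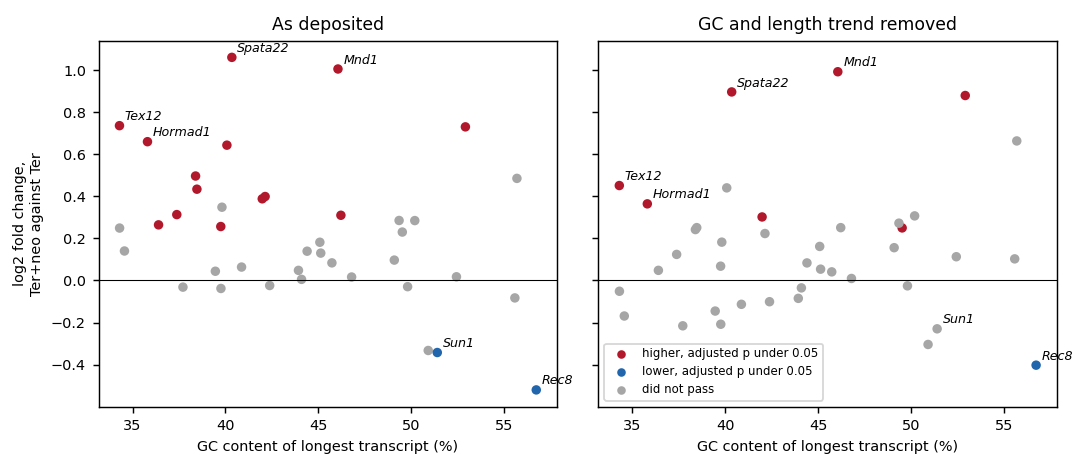
Log2 fold change of the 40 genes in Ter+neo against Ter plotted against the GC content of the longest transcript in percent, from the values as deposited (left) and after a GC and length trend over all genes was taken out (right). Red and blue points passed the threshold as higher and lower. The 14 higher genes on the left have a median GC content of 39.9%, and 6 of them and *Syce1* are called higher on the right.

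Genes around the meiotic program gave values of both directions. Of 27 further meiotic prophase genes, all with a value, 8 rose (29.6%) and 10 fell (37.0%) in Ter+neo against WT, beside 27.7% and 26.7% of all genes. In Ter against WT 4 rose (14.8%) and 9 fell (33.3%), beside 14.1% and 11.0% of all genes. In Ter+neo against Ter 6 rose (22.2%) and 2 fell (7.41%), beside 12.5% and 15.2%. The medians were -0.07, 0.02 and 0.08 in the 3 comparisons, in this order. *Rad51ap2* was at 6.84, 7.14 and 8.28 CPM in Ter+neo, 4.36 and 4.20 CPM in Ter, and 2.17 and 2.58 CPM in WT (log2 fold change 1.63 in Ter+neo, limma adjusted p = 2.35e-05, and 0.85 in Ter, adjusted p = 0.00592). The transcription factor gene *Tcfl5* and the helicase gene *Hfm1* rose in Ter+neo by 0.80 (adjusted p = 7.07e-06) and 0.47 (adjusted p = 0.000282), with 0.15 and 0.11 in Ter, which did not pass. *Mcmdc2* fell by 1.18 in Ter+neo (adjusted p = 7.85e-05) and by 0.83 in Ter (adjusted p = 0.00450). Of 9 genes of mitotic cohesin, 3 rose (33.3%) and 4 fell (44.4%) in Ter+neo against WT, beside 27.7% and 26.7% of all genes. In Ter none rose and 1 fell (11.1%), beside 14.1% and 11.0% of all genes. In Ter+neo against Ter 4 rose (44.4%) and 1 fell (11.1%), beside 12.5% and 15.2%. *Smc1a*, the somatic counterpart of *Smc1b*, was at 101, 105 and 102 CPM in Ter+neo, 133 and 135 CPM in Ter, and 142 and 149 CPM in WT, and it was lower in Ter+neo than in WT (-0.51, adjusted p = 7.23e-05) and in Ter (-0.38, adjusted p = 0.00122). The kleisin gene *Rad21* (0.33, adjusted p = 0.00131) and *Stag1* (0.21, adjusted p = 0.0144) were higher in Ter+neo than in WT, and *Pds5b* passed in Ter+neo against Ter (0.24, adjusted p = 0.00853).

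Of 8 regulators of meiotic entry with a value, 1 rose (12.5%) and 2 fell (25.0%) in Ter+neo against WT, beside 27.7% and 26.7% of all genes. In Ter against WT 2 rose (25.0%) and 3 fell (37.5%), beside 14.1% and 11.0% of all genes. In Ter+neo against Ter 2 rose (25.0%) and 3 fell (37.5%), beside 12.5% and 15.2%. *Nanos2*, the male factor that acts against meiotic entry, was at 26.97, 33.5 and 20.9 CPM in Ter+neo, 41.3 and 39.9 CPM in Ter, and 56.4 and 59.3 CPM in WT. The groups did not overlap, and *Nanos2* fell by 1.12 in Ter+neo (limma adjusted p = 0.000209) and by 0.51 in Ter (adjusted p = 0.0481). Of the retinoic acid receptor genes, *Rarb* was at 1.39 to 2.85 CPM in Ter+neo, 1.29 and 1.88 CPM in Ter, and 0.380 and 0.427 CPM in WT (2.21 in Ter+neo, adjusted p = 0.000241, and 1.87 in Ter, adjusted p = 0.00474), whereas *Rara* was lower in Ter+neo (-0.62, adjusted p = 0.000188) and had a value of -0.04 in Ter. *Dnd1*, which encodes a partner of NANOS2, was lower in Ter than in WT (-0.45, adjusted p = 0.00691) and higher in Ter+neo than in Ter (0.41, adjusted p = 0.00496). Of 13 genes of PRC1.6 and other repressors, 1 rose (7.69%) and 9 fell (69.2%) in Ter+neo against WT, beside 27.7% and 26.7% of all genes. In Ter none rose and 3 fell (23.1%), beside 14.1% and 11.0% of all genes. In Ter+neo against Ter 4 rose (30.8%) and 6 fell (46.2%), beside 12.5% and 15.2%. The medians were -0.33, -0.19 and -0.21 in the same order. *Setdb1* (-0.50, adjusted p = 5.45e-05), *Dnmt1* (-0.51, adjusted p = 0.000206), *Max* (-0.69, adjusted p = 0.000326) and *L3mbtl2* (-0.47, adjusted p = 0.000334) were lower in Ter+neo than in WT, and *Setdb1* (-0.24, adjusted p = 0.0154) and *L3mbtl2* (-0.25, adjusted p = 0.0356) were also lower in Ter.

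Of 12 genes of later spermatogenesis, 5 had a value. In Ter+neo against WT, *Ldhc* (0.87, limma adjusted p = 0.000141) and *Akap4* (1.09, adjusted p = 0.00153) rose and *Odf2*, which also serves centrosomes in somatic cells, fell (-1.04, adjusted p = 7.43e-05), so that 2 of 5 rose and 1 fell. In Ter against WT none rose and *Odf2* fell (-0.55, adjusted p = 0.0137), and in Ter+neo against Ter 2 rose and 1 fell. Of all genes, 27.7% rose and 26.7% fell in Ter+neo against WT, 14.1% and 11.0% in Ter against WT, and 12.5% and 15.2% in Ter+neo against Ter. *Spaca1* was at 5.61 to 6.11 CPM in Ter+neo, 4.45 and 4.80 CPM in Ter, and 4.35 and 5.28 CPM in WT and passed in no comparison.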

How the data were processed

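Total RNA-seq libraries of EGFP+ prospermatogonia were grouped by the genotype in the labels, as 3 Ter+neo, 2 Ter and 2 WT. The authors used Trim Galore 0.6.0 for trimming and STAR 2.7.8, on mm10, for alignment and gene counts, while deepTools and edgeR appear in the submitters' processing notes. Neither the annotation release nor the strand setting is stated. What the authors deposited is log2 CPM, made with a mean prior count of 2 reads. Undoing the log gave whole read pairs for 100% of values within 1e-06 of a read, and replicates differed beyond sampling noise (chi-square per degree of freedom 7.64 to 61.8).

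The deposited log2 values of all 20643 genes were fitted with limma 3.58.1 (R 4.3.3), with genotype as the factor, all 7 libraries sharing 1 estimate of spread, and a mean-variance trend. CPM, and CPM per kb over the exon union of GENCODE vM21, came from the recovered reads (Python 3.11.15, pandas 2.3.3). The script was checked on simulated data. Members and lists were chosen with earlier results of these data known. By the rule for named genes, every member is named, with per-library values for the 2 highest of each role per length, for calls with a log2 fold change of at least 1 and for the largest rise and fall of each comparison, and at most 4 genes are named of each other list, those with the smallest p. *Stra8* and *Tex12* were also given by library, and the genes of the bar plots picked, after their values were seen. Alternatives were pseudocounts of 1 and 0.1, a filter of 1 CPM in 2 libraries, scalings, fits of 2 groups, no trend, limma-voom on read pairs, thinning, a GC and length trend taken out, a change of at least 1.5-fold, and each library left out.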

Additional observations from a re-analysis of the deposited data

How the results depend on the processing

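No paired analysis was possible because the groups share no replicate numbers (the labels number the libraries 1 to 7). With no mean-variance trend, limma called 4 members higher and 3 lower in Ter against WT (7 and 7 as reported), beside 9.71% and 4.14% of all genes. In Ter+neo against Ter it called 8 higher and 1 lower (14 and 2 as reported), beside 8.07% and 10.4%. With limma-voom on read pairs, 4 were higher and 4 lower in Ter against WT, beside 8.19% and 6.79% of all genes. A fit of the 2 groups compared only gave 11 higher in Ter, beside 14.9% of all genes. The same total per library gave 4 lower in Ter against WT, beside 6.34% of all genes. The median was 0.014 there in place of -0.07, and 0.14 in Ter+neo against Ter in place of 0.21. After a GC and length trend was taken out, 11 members were lower in Ter+neo against WT (6 as reported), beside 30.3% of all genes. The median was 0.086 in place of 0.19, and *Sycp2* reversed, at -0.047 in place of 0.20. In Ter+neo against Ter, 7 were higher and 1 lower, beside 11.3% and 12.6% of all genes, with a median of 0.11. At least a 1.5-fold change left 4 higher and 0 lower in Ter+neo against WT, beside 7.26% and 3.82% of all genes. It left 1 and 0 in Ter against WT, beside 1.57% and 0.174%, and 0 and 0 in Ter+neo against Ter, beside 0.213% and 0.790%. The cause of these changes was not tested.

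Leaving out 1 library at a time gave 3 to 10 higher and 3 to 9 lower in Ter against WT, 14 to 19 higher and 3 to 8 lower in Ter+neo against WT, and 4 to 14 higher and 1 to 2 lower in Ter+neo against Ter. A lone library left in a group is assumed to vary like the others. All leave-outs kept 6 of 14, 15 of 23 and 3 of 16 calls. Over all genes, the 5187 calls of Ter against WT became 3092 with limma-voom, 2858 with no trend and 361 at 1.5-fold, with 70.1% of calls higher with no trend, and 1408 to 5870 with 1 library left out. The 11231 calls of Ter+neo against WT became 2286 at 1.5-fold, and the 5717 of Ter+neo against Ter became 207 at 1.5-fold and 2326 to 5404 with 1 library left out. Low counts limit *Mei1*, *Spata22*, *Majin* and *Meiob* in WT, and counting error is part of their spread.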
